A study of Mus musculus with 8 samples.

Results

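EnPGC-1 was set against its vehicle, DMSO, in activated mouse CD8+ T cells. The comparison rests on 4 of the 8 RNA-seq libraries in the series, chosen by the compound named in the labels: 2 libraries of cells kept with EnPGC-1 and 2 of cells kept with DMSO. All cells were primary CD8+ T cells of C57BL/6 mice, taken from lymph node and spleen, stimulated through the T cell receptor with antibodies against CD3 and CD28, and exposed to compound or vehicle for 48 hours. The remaining libraries, 2 with Ctrl PIP (the compound named as a control) and 2 with SGC-CBP30 (which blocks the CBP and p300 bromodomains), received the same stimulation and are given here only as reference levels. The labels state no dose, no age of the mice, and not whether the libraries of a group came from separate animals or cultures, so the spread between them may be technical. The series title places the compound in work on inducing mitochondrial biogenesis, and the comparison asks which genes differed in cells kept with it.

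A CD8+ T cell that meets its antigen leaves quiescence within hours. Receptor signals switch on early transcription factors of the EGR, AP-1, IRF and NR4A families, then MYC, which drives amino acid uptake, ribosome production, nucleotide synthesis and glycolysis before the cell divides and loads its granules with granzymes. Genes of the resting state, such as the factor Klf2, are turned down over the same period. Polyamides built of pyrrole and imidazole units (PIPs) bind the minor groove of DNA at short sequences and can carry an effector to those sites. PGC-1 alpha, encoded by Ppargc1a, is a coactivator of the genes of mitochondria.

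Total counts ranged from 38890043 to 55491261 per library, and 16750 of 45777 listed genes had enough counts to be tested. The libraries of a group lay far apart. The first and second DMSO libraries held 0.114% and 0.924% of their counts in the ribosomal RNA gene Rn18s-rs5, and the EnPGC-1 libraries 0.244% and 0.878%. The CD8 identity markers, 12 genes of which all were tested, summed to 7016 and 6590 CPM (counts scaled to a common library size) with DMSO and to 6827 and 7801 CPM with EnPGC-1, so the label fits the markers. B cell markers summed to 1207 and 734 CPM with DMSO and 1052 and 962 CPM with EnPGC-1, and CD4 T cell markers to 747 and 391 CPM and 637 and 554 CPM, with Il17a at 0 in all 4 libraries. Myeloid markers summed to 35.7 and 23.7 CPM and 54.3 and 14.7 CPM, with Marco at 0 in all 4. NK markers, several of which activated CD8+ T cells also express, summed to 387 and 352 CPM and 321 and 377 CPM, with Klra4 at 0. Stromal markers summed to 211 and 110 CPM and 246 and 213 CPM, with Ccl21a, Ccl19 and Pdpn at 0. Erythroid and platelet markers summed to 68.9 and 15.9 CPM and 141 and 26.7 CPM, with Slc4a1 at 0, and all 12 tested members had a log2 fold change above 0, beside 50.2% of all genes. The part of other cell types in the differences below was not tested. In bulk RNA, fewer cells of a kind and less RNA per cell cannot be told apart.

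No gene passed the threshold of an adjusted p of 0.05 in edgeR's quasi-likelihood test with Benjamini-Hochberg adjustment, with 0 of 16750 genes (0%) called higher and 0 (0%) called lower, and the lowest adjusted p was 0.998. At an unadjusted p under 0.05 the same test listed 134 genes higher (0.8%) and 304 lower (1.81%), together a smaller share than the threshold of 0.05 itself. Levels were therefore read library by library. Both EnPGC-1 libraries lay above both DMSO libraries for 1646 genes (9.83%) and below both for 1547 genes (9.24%), and such genes are called separated here. The counts of separated genes in each list below are to be read beside these shares. Genes of a list can shift together from library to library, so their number adds no replicates to the 2 libraries of a group. This also holds for counts of list members below or above 0. The gap between the nearest libraries of both groups was at least 2-fold for 88 of the higher and 85 of the lower genes. With 2 libraries against 2, the smallest two-sided exact permutation p of a single gene is 0.333, so separation describes the libraries and is no test. Separated genes made up 19.1% of all genes tested, a smaller share than the 0.333 that random ordering of the libraries would give. The median 95% interval of a gene reached 0.998 log2 units to either side. Every log2 value below is EnPGC-1 minus DMSO.

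Among genes whose higher group averaged at least 5 CPM and whose unadjusted edgeR p was under 0.05, 234 were separated lower and 59 higher. The lower ones with the largest gaps included products of activated and effector T cells. Gzmb, which encodes the granule protease granzyme B (chr14:56258836-56262334), stood at 79.7 and 83.4 CPM with EnPGC-1 and at 219.9 and 490.4 CPM with DMSO. The EnPGC-1 libraries lay close together and far under a DMSO pair that was itself spread widely, and the log2 fold change was -2.12 (SE 0.41, 95% interval -3.10 to -1.14). Below that level, Batf3, a transcription factor of activated lymphocytes (chr1:191098414-191108943), had 11 and 34 counts with EnPGC-1 and 113 and 144 with DMSO. That is 0.267 and 0.631 CPM against 2.69 and 2.84 CPM, low in every library but clearly separated (-2.61, SE 0.54).

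The stretches around the annotated starts of 4 genes whose libraries were separated lower are printed because they hold a motif of a factor family that T cell activation engages. In Batf3 (chr1:191098164-191098463, plus strand), Egr2 (chr10:67535249-67535548, plus strand) and Grwd1 (chr7:45830740-45831039, minus strand) the capitals mark CACGTG, the E-box that MYC binds with MAX. In Gzmb (chr14:56262285-56262584, minus strand) they mark TGAGTCA, a form of the AP-1 motif TGANTCA. Each run is 300 bases, 5′ to 3′, from RefSeq on GRCm38.p6.
Batf3: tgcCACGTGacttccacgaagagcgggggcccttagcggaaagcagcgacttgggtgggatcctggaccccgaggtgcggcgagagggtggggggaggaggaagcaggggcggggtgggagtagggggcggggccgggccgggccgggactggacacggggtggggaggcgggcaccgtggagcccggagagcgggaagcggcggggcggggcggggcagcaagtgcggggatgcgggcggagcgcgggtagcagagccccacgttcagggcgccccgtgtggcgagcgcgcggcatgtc
Egr2: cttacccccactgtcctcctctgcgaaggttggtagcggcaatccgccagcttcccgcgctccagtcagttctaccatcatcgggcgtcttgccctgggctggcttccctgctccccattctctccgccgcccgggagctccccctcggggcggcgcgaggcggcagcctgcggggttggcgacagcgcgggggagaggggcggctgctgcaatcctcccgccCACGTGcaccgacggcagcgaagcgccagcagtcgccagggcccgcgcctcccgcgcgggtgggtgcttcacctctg
Grwd1: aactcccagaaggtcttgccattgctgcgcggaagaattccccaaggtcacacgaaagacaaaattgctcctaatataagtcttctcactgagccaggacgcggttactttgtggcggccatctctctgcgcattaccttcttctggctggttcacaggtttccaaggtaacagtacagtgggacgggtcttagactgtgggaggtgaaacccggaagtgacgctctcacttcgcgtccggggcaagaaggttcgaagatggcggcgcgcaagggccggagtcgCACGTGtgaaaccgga
Gzmb: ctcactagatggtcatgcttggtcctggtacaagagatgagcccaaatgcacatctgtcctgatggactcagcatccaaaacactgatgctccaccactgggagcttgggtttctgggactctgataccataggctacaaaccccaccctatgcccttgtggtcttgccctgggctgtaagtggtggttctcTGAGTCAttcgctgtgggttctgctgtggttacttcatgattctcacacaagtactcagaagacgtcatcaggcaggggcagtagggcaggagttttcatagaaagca
Both motifs were searched on both strands of the promoters of the 11806 tested genes that the RefSeq table held, and they do not overlap each other in these 4. CACGTG stood in 1149 of those promoters (9.73%), in 147 of 1126 promoters of genes separated lower (13.1%) and in 89 of 1203 of genes separated higher (7.40%). TGANTCA stood in 613 of all (5.19%), in 63 of the lower group (5.60%) and in 57 of the higher group (4.74%). A match is a string of letters and not a measured binding site.

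Other separated lower genes covered several functions. Ly6c2, a surface protein of antigen-experienced CD8+ T cells, was at 125 and 159.5 CPM against 319 and 588 CPM (-1.67, SE 0.45). Its near copy Ly6c1 was at 10.1 and 12.2 CPM against 24.4 and 47.3 CPM, and reads of the pair may have been shared in the counting. Pik3ap1, an adaptor that links receptors to PI3 kinase, was at 4.37 and 4.72 CPM against 10.8 and 17.8 CPM (-1.66, SE 0.36). The EnPGC-1 pairs of these genes agree closely, while the second DMSO library lies well above the first. Tubb6, a beta tubulin, followed the same layout at 2.77 and 2.86 CPM against 7.37 and 21.8 CPM (-2.38, SE 0.55). Utf1, a chromatin protein known from embryonic stem cells, was at 0.559 and 1.02 CPM against 2.83 and 11.2 CPM (-3.14, SE 0.75). Tighter DMSO pairs were found for Tnfsf11, which encodes the cytokine RANKL, at 2.94 and 3.64 CPM against 6.99 and 8.24 CPM (-1.21, SE 0.31). Car12, a carbonic anhydrase of the cell surface, was at 4.83 and 2.95 CPM against 9.51 and 8.95 CPM (-1.25, SE 0.33). The factor Irf5 was at 4.54 and 5.20 CPM against 9.80 and 11.9 CPM (-1.15, SE 0.28). Adap1, Galnt3, Bspry, Nlgn2 and Gcat were also among the lower genes with the largest gaps, and their log2 fold changes ran from -1.83 for Bspry to -1.06 for Nlgn2.

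The separated higher genes with the largest gaps were mostly of low level, as were many of the lower ones. Uchl1, a ubiquitin hydrolase best known from neurons (chr5:66676121-66687234), was at 14.2 and 4.81 CPM with EnPGC-1 and at 1.62 and 1.44 CPM with DMSO (2.64, SE 0.60). The DMSO libraries were alike, and the EnPGC-1 libraries differed from each other nearly as much as the lower of them differed from DMSO. Amt, an enzyme of the glycine cleavage system of mitochondria, was at 6.12 and 7.78 CPM against 2.81 and 2.49 CPM (1.39, SE 0.28). Sqor, a mitochondrial enzyme that oxidizes hydrogen sulfide, was at 7.92 and 8.69 CPM against 4.09 and 1.82 CPM (1.49, SE 0.47). Mt1, a metallothionein that binds zinc and copper (chr8:94178883-94180327), was at 20.4 and 32.5 CPM against 8.18 and 13.2 CPM (1.31, SE 0.47). Its neighbour Mt2, looked up after the values of Mt1 were seen, was at 19.6 and 26.8 CPM against 4.90 and 9.72 CPM (1.66, SE 1.15). Both metallothioneins were thus separated, in EnPGC-1 libraries that lay above all 6 others of the series. Ifngr2, a chain of the interferon gamma receptor, was at 22.2 and 32.0 CPM against 14.5 and 13.5 CPM (0.95, SE 0.24). Serpini1, a protease inhibitor, was at 19.9 and 22.7 CPM against 12.8 and 11.8 CPM (0.79, SE 0.20), with both pairs tight. The nuclear RNA Neat1, the scaffold of paraspeckles, was at 342 and 480.4 CPM against 240.5 and 219 CPM (0.84, SE 0.25). The remaining higher genes by this rule were Agbl3, Rgmb, Mttp, Tnfrsf23, Zfp712, Ankrd55, Cyp2d22 and Ocel1, with log2 fold changes from 0.73 for Ocel1 to 1.60 for Agbl3.

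**Figure D1:**
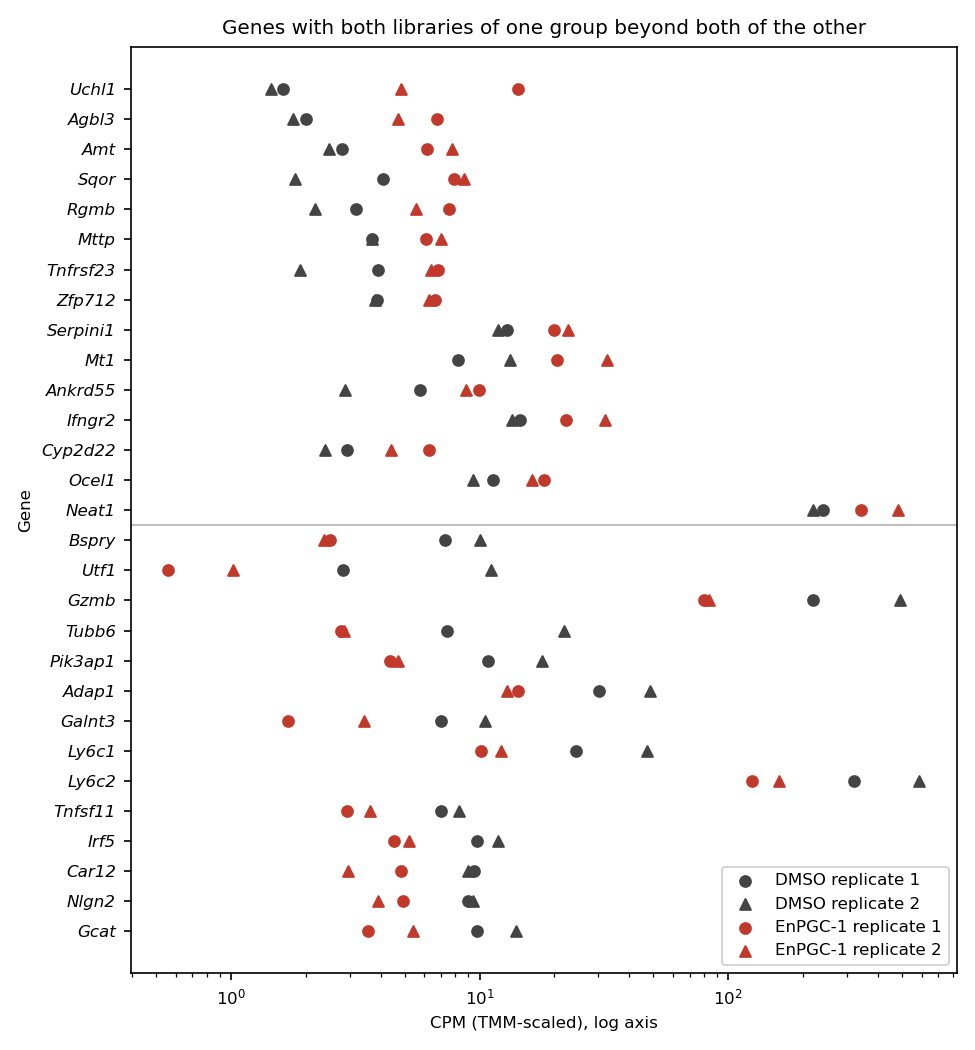
CPM on a log axis in both EnPGC-1 and both DMSO libraries for 15 higher and 14 lower separated genes among those with the largest gaps, 1 point per library. The 2 EnPGC-1 points of each gene lie on one side of the 2 DMSO points, and the distance between the DMSO points is itself wide for Gzmb, Tubb6 and Utf1.

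DESeq2's Wald test, an alternative to edgeR, called 6 genes higher and 16 lower. Of these 22 genes 20 were separated, beside 19.1% of all genes. The test used the same counts and favours groups that do not overlap, so this count is no support for the calls. Gzmb, Batf3, Bspry, Adap1, Utf1, Tubb6, Pik3ap1 and Pdcd1lg2 were among the lower calls, and Uchl1, Amt, Agbl3 and Serpini1 among the higher ones. The genes that follow were named after the calls were seen. Coro2a, a coronin family actin regulator, was at 32.8 and 31.6 CPM against 62.2 and 57.2 CPM. Itgb1, the integrin beta 1 chain used by activated and memory T cells, was at 152 and 161 CPM against 289.5 and 256 CPM. Fgr, a SRC family kinase, was at 1.51 and 1.80 CPM against 4.99 and 4.68 CPM. For each of these 3 genes the EnPGC-1 pair lay close together and far below a close DMSO pair, a layout that such a test picks out. The phosphatase gene Ptpn5 had 19 and 20 counts against 77 and 81. Il4i1b had 54 and 42 counts with EnPGC-1 and 0 in both DMSO libraries, and Maats1 had 0 in both EnPGC-1 libraries and 45 and 53 counts with DMSO. Gm11127 and Pakap had counts in 1 of the 4 libraries only.

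Transcription factors induced by activation lay lower with EnPGC-1. Of 28 tested BATF, AP-1, IRF, EGR and NR4A factors and their companions, 10 were separated lower and 1 higher, with a median log2 fold change of -0.63 beside 0.00 over all genes. Their medians were alike in both same-numbered ratios, -0.57 between the first libraries and -0.60 between the second, and with libraries left out the fitted median ran from -0.73 to -0.50. With offsets for transcript length and GC content it was smaller, -0.39. Egr2 was at 6.24 and 6.26 CPM against 11.0 and 13.0 CPM (-0.94, SE 0.36), and Egr1, a factor of the same zinc finger family, at 40 and 33.3 CPM against 61.6 and 60 CPM (-0.73, SE 0.24). Myc was at 97.8 and 85.9 CPM against 147 and 208 CPM (-0.95, SE 0.24). Irf4, a factor that scales with receptor signal strength, was at 24.6 and 38.7 CPM against 52.8 and 88.4 CPM (-1.16, SE 0.32). All 4 genes were separated, and the Irf4 values lay under all 6 other libraries of the series, with SGC-CBP30 close by at 40.1 and 39.6 CPM. Egr2, at 5.67 and 3.49 CPM, and Egr1, at 27.8 and 27.3 CPM, were lower still with SGC-CBP30. Irf1, a factor induced by interferon gamma, was the member separated higher, at 533 and 498 CPM against 490.1 and 332 CPM (0.33, SE 0.24).

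Proximal receptor genes lay on both sides of DMSO. Of 28 tested genes of the T cell receptor complex and its first signalling steps, 3 were separated lower and 1 higher, with a median of 0.00, and 14 lay on each side of 0. The 3 lower ones were near the 9.24% of all genes separated lower. The library pairs went opposite ways, with 26 of 28 below DMSO between the first libraries (median -0.15) and 7 between the second (median 0.16), and the fitted median ran from -0.19 to 0.17 with libraries left out. Ptpn6, the phosphatase SHP-1, was at 147 and 155 CPM against 170.2 and 277 CPM, and Cd247, the zeta chain, at 251 and 301 CPM against 234 and 215 CPM. NF-kB subunits, inhibitors and targets had 4 of 26 separated lower and 0 higher, with a median of -0.06 (0.28 without the first DMSO library and 0.05 without the second EnPGC-1 library).

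Among 30 costimulatory receptors and genes of the IL-2 receptor axis, 7 were separated lower and 1 higher (median -0.19, but 0.06 without the first DMSO library). Tfrc, the transferrin receptor that brings iron into growing cells, was at 195 and 187 CPM against 292 and 289 CPM (-0.61, SE 0.21). Il2ra, the alpha chain of the IL-2 receptor, was at 64.8 and 49.8 CPM against 132 and 84.3 CPM (-0.91, SE 0.30), and Tnfrsf9, which encodes 4-1BB, at 32.1 and 41.7 CPM against 53.7 and 191 CPM (-1.73, SE 0.61). The EnPGC-1 libraries of Tfrc lay below all 6 others, as did those of Tnfsf14, which encodes the ligand LIGHT, at 2.94 and 4.88 CPM against 7.35 and 11.6 CPM (-1.28, SE 0.36). Socs1, an inhibitor of cytokine signalling, was the 1 member separated higher, by a gap close to 0, at 70.1 and 64.9 CPM against 64.8 and 54.6 CPM. Il2 itself had 0 and 17 counts with EnPGC-1 and 13 and 14 with DMSO, and the groups overlapped.

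Effector genes were split. Of 20 tested cytokine and chemokine genes, 9 were separated lower and 0 higher, with a median of -0.46 that ran from -0.87 to -0.24 with libraries left out. Summed levels of the list overlapped, at 1204 and 964 CPM with EnPGC-1 and 1253 and 807 CPM with DMSO. The total was therefore not lower throughout. Ifng, which encodes interferon gamma, was at 5.71 and 3.36 CPM against 12.6 and 8.02 CPM (-1.18, SE 0.40). Tnf was at 3.64 and 6.37 CPM against 8.96 and 11.8 CPM (-1.05, SE 0.40), and the chemokine Ccl4 at 4.47 and 3.32 CPM against 6.99 and 11.5 CPM (-1.24, SE 0.36). These 3 genes were separated at low levels. Of 21 genes of cytotoxic granules, 5 were separated lower and 1 higher, with a median of -0.10 (0.01 without the first DMSO library). Gzmc, a second granzyme, was at 0.583 and 0.891 CPM against 2.09 and 2.55 CPM (-1.65, SE 0.55). Fasl, the death ligand, was at 2.55 and 2.80 CPM against 3.52 and 7.45 CPM (-1.03, SE 0.48). Prf1, the pore-forming perforin, was at 32.5 and 21.1 CPM against 27.8 and 22.6 CPM, and its groups overlapped (0.09, SE 0.31). Ctsl, a cathepsin, was the higher member, at 15.4 and 15.2 CPM against 12.9 and 9.25 CPM (0.46, SE 0.26). The AP-1 motif stood in 5 of 18 promoters of the cytokine genes (27.8%) and in 1 of 19 of the granule genes (5.26%), that of Gzmb. It also stood in 9 of 29 of the type I interferon-stimulated genes (31.0%), whose median was 0.07, and in 0 of 21 of the activation factors.

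Inhibitory receptors and ligands had 7 of 19 separated lower and 1 higher (median -0.20, from -0.55 to -0.17 with libraries left out). Pdcd1lg2, which encodes the PD-1 ligand PD-L2, was at 1.24 and 0.836 CPM against 3.85 and 4.11 CPM (-1.94, SE 0.37), below all 6 other libraries. Tigit was at 18.2 and 25.9 CPM against 37.0 and 54.3 CPM (-1.05, SE 0.32), and Cd160 at 15.1 and 22.4 CPM against 30.7 and 49.2 CPM (-1.09, SE 0.31). Nt5e, the ectonucleotidase CD73 that makes adenosine, was the higher member, at 63.8 and 38.5 CPM against 33.8 and 19.8 CPM (0.93, SE 0.35). Its first EnPGC-1 library stood above the rest and its second just above the first DMSO library.

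Growth genes lay mostly lower with EnPGC-1. All 48 ribosome biogenesis genes had a log2 fold change below 0, beside 49.8% of all genes, and 31 of them were separated lower with 0 higher. In both same-numbered ratios 45 of 48 lay below 0, beside 30.9% of all genes. The size was unequal, with a median of -0.16 between the first libraries and -0.99 between the second, and -0.60 in the fit of all libraries. As a whole the list overlapped between the groups, with summed levels of 5183 and 6002 CPM against 5837 and 9344 CPM. Grwd1, a chaperone of a ribosomal protein, was at 21.0 and 18.4 CPM against 27.8 and 59.4 CPM (-1.15, SE 0.35). Nolc1, a nucleolar scaffold, was at 96.2 and 74.9 CPM against 119.7 and 176 CPM (-0.79, SE 0.25), and Bysl, a factor of the small subunit, at 22.9 and 22.3 CPM against 29.9 and 53 CPM (-0.88, SE 0.28). The second DMSO library was the high one for all 3. Noc4l, a small-subunit assembly factor, had the closer DMSO pair, at 48.2 and 49.6 CPM against 62.8 and 76.6 CPM, and lay below all 6 other libraries (-0.51, SE 0.20). CACGTG stood in 9 of the 42 promoters of this list that were held (21.4%), that of Grwd1 among them. Its share was 26.7% for aminoacyl-tRNA synthetases (median -0.42). It was 27.6% for autophagy and lysosome genes, whose median was 0.06, so a high share was not limited to lists that lay lower.

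Aminoacyl-tRNA synthetases, which charge tRNAs for translation, had 13 of 22 separated lower and 1 higher (median -0.42, from -0.61 to -0.11 with libraries left out). Eprs was at 146 and 116 CPM against 185 and 192 CPM, below all 6 others (-0.53, SE 0.20). The higher one was Wars, the tryptophan enzyme, which interferon gamma is known to induce, at 164 and 216 CPM against 153 and 128 CPM (0.43, SE 0.21). Genes of amino acid transport and one-carbon metabolism had 8 of 28 separated lower and 3 higher (median -0.36, from -0.62 to -0.02 with libraries left out). Shmt1, a serine hydroxymethyltransferase of the cytosol, was at 19.0 and 16 CPM against 30.2 and 61.7 CPM (-1.39, SE 0.35), and its mitochondrial relative Shmt2 at 113 and 116 CPM against 147 and 279 CPM (-0.90, SE 0.31). Both lay below all 6 other libraries, with SGC-CBP30 at 19.5 and 23.7 CPM for Shmt1 and at 129 and 147 CPM for Shmt2. Slc7a5, a transporter of large amino acids, was at 64.9 and 47.4 CPM against 102 and 125 CPM (-1.01, SE 0.24). Slc7a7, another transporter, went the other way through its first library alone, at 3.93 and 0.817 CPM against 0.642 and 0.652 CPM.

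Polyamine and nucleotide synthesis had 12 of 30 separated lower and 0 higher (median -0.53, from -0.87 to -0.06 with libraries left out), and 6 of these lay below all 6 other libraries, where 2.99% of all genes did. Gart, an enzyme of purine synthesis, was at 100.2 and 92.6 CPM against 133 and 194 CPM (-0.76, SE 0.23). Cad, which starts pyrimidine synthesis, was at 134 and 92.9 CPM against 175 and 184 CPM (-0.66, SE 0.24). Srm, spermidine synthase, was at 43.8 and 35.5 CPM against 54.6 and 121 CPM (-1.14, SE 0.37). The EnPGC-1 values of Gart and Cad were the lowest of the series, and those of Srm were not. Summed levels of polyamine and nucleotide genes overlapped between the groups, at 2961 and 4148 CPM against 3553 and 6151 CPM. Cholesterol and fatty acid synthesis had 17 of 39 separated lower and 0 higher (median -0.54, from -0.76 to -0.20 with libraries left out). Summed levels of this list did not overlap, at 2373 and 2463 CPM against 2962 and 3666 CPM. The same held for aminoacyl-tRNA synthetases and for amino acid transport and one-carbon metabolism. Sqle, squalene epoxidase, was at 27.7 and 29.6 CPM against 41.3 and 77.9 CPM (-1.06, SE 0.32), with the second DMSO library well above the first.

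Glycolysis genes had a lower median than any growth list, -0.72 over 27 genes, but only 4 were separated lower and 2 higher, and the median was -0.25 between the first libraries and -0.80 between the second. Without the second DMSO library it was 0.16. Summed levels overlapped between the groups, at 5258 and 11659 CPM against 7369 and 20731 CPM. Hk2, the hexokinase induced in activated T cells (chr6:82725025-82774454), was at 12.8 and 18.2 CPM against 24.2 and 73.6 CPM (-1.66, SE 0.51). Pfkp, a phosphofructokinase, was at 229.6 and 249.6 CPM against 271 and 391 CPM (-0.47, SE 0.24). Both EnPGC-1 pairs lay below all 6 other libraries. The glucose transporter Slc2a1 overlapped, at 33.3 and 54.3 CPM against 39.6 and 133 CPM (-0.98, SE 0.55). Hk3, a minor hexokinase, lay higher at 5.17 and 3.90 CPM against 2.69 and 1.74 CPM (1.04, SE 0.39).

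**Figure D2:**
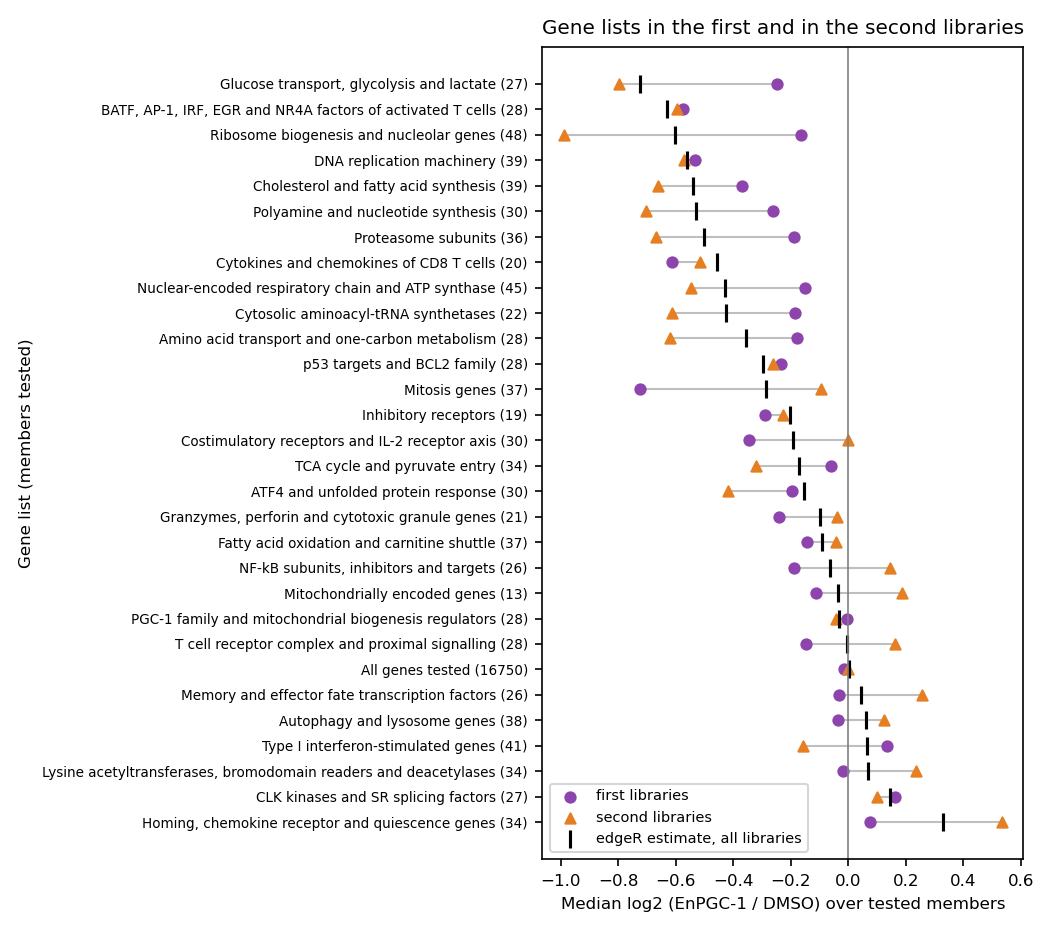
Median log2 difference of EnPGC-1 minus DMSO for each gene list, between the first libraries and between the second libraries of the groups, 1 point per list and library pair. The medians of ribosome biogenesis lie at -0.16 and -0.99, while those of DNA replication lie together at -0.53 and -0.57.

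Mitochondrial genes were read next, since the study concerns mitochondria. Ppargc1a had 74 and 10 counts with EnPGC-1 and 14 and 0 with DMSO, few in every library, and the groups overlapped. Its relatives overlapped too: Ppargc1b was at 32.5 and 10.0 CPM against 27.2 and 10.6 CPM, and Pprc1 at 60.4 and 29.9 CPM against 56.9 and 67.0 CPM. Tfam, which packages and transcribes mitochondrial DNA, was at 60 and 82.9 CPM against 54.3 and 117 CPM, and the nuclear receptor Esrra at 21.5 and 25.6 CPM against 23.4 and 30.6 CPM. Neither was separated. Nrf1, a factor of nuclear genes of the respiratory chain, was separated by a gap close to 0, at 67.9 and 61.3 CPM against 69.1 and 69.0 CPM. Of 28 PGC-1 family members and regulators of mitochondrial biogenesis, 1 was separated higher and 1 lower (median -0.03, and 0.04 without the first DMSO library). The higher one was Mterf3, a factor of mitochondrial transcription and ribosomes, at 32.1 and 29.7 CPM against 24 and 26.8 CPM (0.28, SE 0.18).

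The share of counts from the mitochondrial genome was higher in both EnPGC-1 libraries than in both DMSO libraries, but not above all other libraries. Genes of the mitochondrial genome held 2.71% and 2.24% of counts with DMSO and 3.03% and 2.78% with EnPGC-1, while Ctrl PIP stood at 2.73% and 2.78% and SGC-CBP30 at 2.50% and 3.23%. Of the 13 protein genes, 2 were separated higher and 0 lower. Log2 fold changes were below 0 for 7 and above 0 for 6, so the higher share did not run through all 13. Their median was -0.04 and kept its sign in 5 of 14 alternatives. COX1, the catalytic subunit of cytochrome oxidase, was at 12854 and 11545 CPM with EnPGC-1 and 10371 and 7995 CPM with DMSO, above all 6 other libraries (0.41, SE 0.29). The ribosomal RNAs of the mitochondrion, looked up after their values were seen, were separated as well. mt-Rnr1 was at 911 and 799 CPM against 744 and 632 CPM, and mt-Rnr2 at 1208 and 1387 CPM against 1089 and 1075 CPM. Such RNAs are caught in a poly(A) library to an extent that can vary between libraries, and this was not tested. All 45 nuclear genes of the respiratory chain and ATP synthase had a log2 fold change below 0 (median -0.43, but -0.22 with the offsets for length and GC content and 0.29 without the second DMSO library), yet 0 were separated in either direction. Atp5b, an ATP synthase subunit, had this layout, at 626 and 989.5 CPM with EnPGC-1 and 821 and 1444 CPM with DMSO, each library lower than its same-numbered partner and the groups overlapping.

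Fatty acid oxidation was mixed, with 3 of 37 separated higher and 3 lower (median -0.09, but 0.16 without the second DMSO library and 0.18 without the first EnPGC-1 library). Both counts were near the shares of all genes, 9.83% higher and 9.24% lower. Cpt1a, the carnitine acyltransferase that admits fatty acids to mitochondria, was at 154 and 170.1 CPM against 145 and 66.1 CPM (0.62, SE 0.35). Acad10, an acyl-CoA dehydrogenase, was at 22.2 and 22.0 CPM against 17.0 and 11.6 CPM (0.63, SE 0.25). Fabp5, a fatty acid binding protein, lay lower at 10.4 and 14.3 CPM against 23.9 and 35.8 CPM (-1.27, SE 0.31). The TCA cycle had 3 of 34 separated lower, near the 9.24% of all genes, and 0 higher (median -0.17, but 0.11 without the second DMSO library). Suclg2, a subunit of succinyl-CoA ligase, was at 41.1 and 35.7 CPM against 44.0 and 54.6 CPM (-0.36, SE 0.19), below all 6 other libraries.

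Between same-numbered libraries, replication genes lay below DMSO by like amounts and mitosis genes did not, though no label says that these libraries are partners. All 39 genes of the replication machinery were below DMSO in both same-numbered ratios, beside 30.9% of all genes, with medians of -0.53 and -0.57. Without that pairing the groups overlapped, with summed levels of 2852 and 4844 CPM against 3958 and 6803 CPM. Of the 39, 3 were separated lower, no larger a share than the 9.24% of all genes. The fitted median was -0.56, but 0.12 without the second DMSO library. Mcm2, a subunit of the replicative helicase, was at 99.1 and 127 CPM against 151 and 219.9 CPM (-0.72, SE 0.26), below all 6 others. Pole, a leading-strand polymerase, was at 51.1 and 82.6 CPM against 92.4 and 93.4 CPM (-0.47, SE 0.27). Mitosis genes had medians of -0.72 between the first libraries and -0.09 between the second, with 2 of 37 separated lower, and a fitted median of -0.28 that became 0.31 without the first EnPGC-1 library and 0.14 without the second DMSO library. Proteasome subunits had 35 of 36 below 0, beside 49.8% of all genes, and 3 separated lower, near the 9.24% of all genes. Their median was -0.50, but -0.32 with the offsets for length and GC content and 0.13 without the second DMSO library. Among the 3 was Psmd1, a scaffold of the regulatory particle, at 101 and 108 CPM against 126 and 175 CPM.

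**Figure D3:**
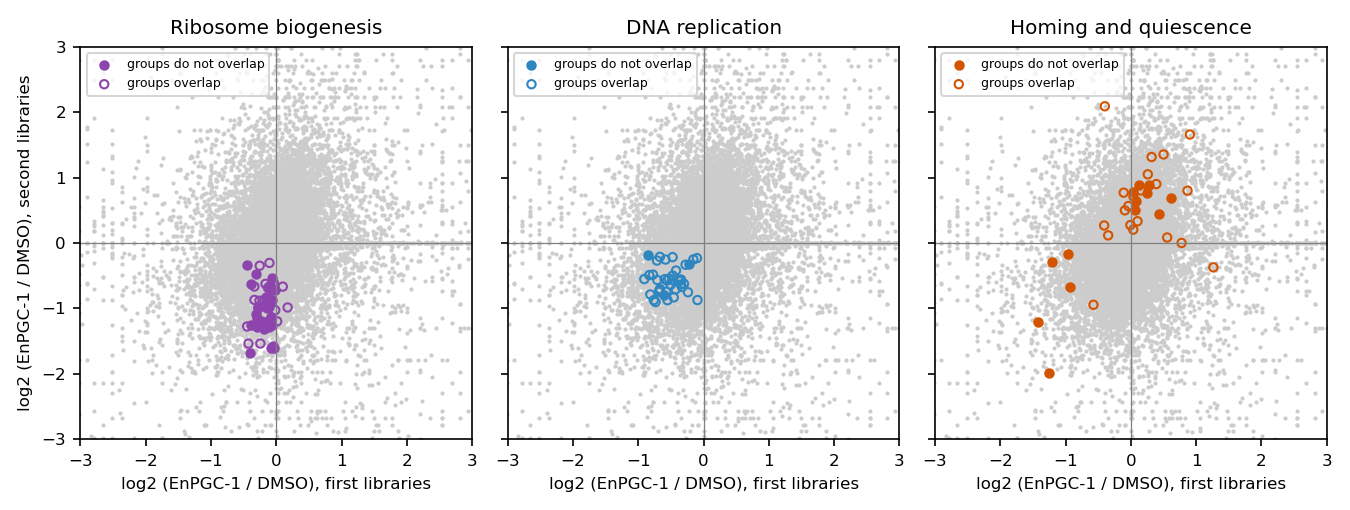
Log2 ratio of EnPGC-1 to DMSO between the second libraries (vertical) against that between the first libraries (horizontal) for 3 gene lists, with all genes tested in grey and both axes limited to 3 on either side, so that genes beyond are not drawn. The 39 replication genes lie below 0 on both axes, and ribosome biogenesis genes lie further below 0 on the vertical axis than on the horizontal one.

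Several genes of the resting and homing state lay higher. Of 34 tested, 8 were separated higher and 5 lower, with a median of 0.33 (-0.02 without the second DMSO library) and 20 above DMSO in both same-numbered ratios, beside 29.1% of all genes. Klf2, the quiescence factor that drives lymph node homing genes (chr8:72319062-72321654), was at 369 and 312 CPM against 241 and 194 CPM (0.65, SE 0.20), above all 6 others. Itgb7, an integrin chain of gut homing, was at 560.3 and 735 CPM against 513 and 398 CPM (0.51, SE 0.25), and Tsc22d3, the glucocorticoid-induced leucine zipper, at 83.7 and 140.4 CPM against 68.6 and 76.2 CPM (0.63, SE 0.27). The lower members included Ccr2, a receptor for inflammatory chemokines, at 8.33 and 3.34 CPM against 19.9 and 13.3 CPM (-1.51, SE 0.46).

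Factors of memory and effector fate were mostly not separated, with 2 of 26 higher and 1 lower (median 0.05, but -0.17 without the second DMSO library and -0.23 without the first EnPGC-1 library). Eomes, a T-box factor, was the lower one, at 48.4 and 40 CPM against 63.7 and 73.1 CPM (-0.63, SE 0.19). Bcl6, a repressor of effector differentiation, was at 27 and 26 CPM against 22.9 and 16.2 CPM (0.44, SE 0.22). Tcf7, the factor of naive and memory T cells, overlapped at 2112 and 1808 CPM against 1929 and 1041 CPM. Interferon-stimulated genes had 9 of 41 separated higher and 4 lower (median 0.07, but -0.18 without the first EnPGC-1 library). The GTPases Igtp, at 836 and 833 CPM against 693 and 543 CPM (0.43, SE 0.22), and Gbp2, at 378 and 592 CPM against 318 and 315 CPM (0.62, SE 0.26), were higher. Both are also induced by interferon gamma. The antiviral genes Mx1, at 4.52 and 2.62 CPM against 7.32 and 8.36 CPM (-1.14, SE 0.70), and Oas3, at 40.7 and 43.7 CPM against 56.0 and 59.4 CPM (-0.45, SE 0.41), were lower.

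Genes of chromatin were little separated. Of 34 lysine acetyltransferases, bromodomain readers and deacetylases, 2 were separated higher and 1 lower (median 0.07, but -0.13 without the second DMSO library and -0.09 without the first EnPGC-1 library). The acetyltransferase genes Crebbp, at 149 and 60 CPM against 142 and 38.6 CPM, and Ep300, at 216 and 77.9 CPM against 211 and 51.2 CPM, followed the library number and overlapped. Brd9, a bromodomain subunit of a SWI/SNF complex, was at 102 CPM in each EnPGC-1 library against 89.4 and 78.6 CPM (0.28, SE 0.17). CLK kinases and SR splicing factors had 6 of 27 separated higher and 3 lower (median 0.14, but -0.19 without the first EnPGC-1 library). Rsrp1, an arginine and serine rich protein, was at 473 and 504 CPM against 370.0 and 349 CPM (0.44, SE 0.19), and the kinase Clk4 at 77.2 and 73.7 CPM against 65.8 and 54.1 CPM (0.33, SE 0.18).

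Of all genes tested, 551 (3.29%) lay above and 500 (2.99%) below all 6 other libraries in both EnPGC-1 libraries. The margin to SGC-CBP30 was small for some of them, such as Irf4, Shmt1 and Tnfsf14. For other genes the SGC-CBP30 libraries stood at or beyond the EnPGC-1 level, and since both compounds were compared with the same DMSO libraries their values are only set side by side. Gzmb was at 36.4 and 41.6 CPM with SGC-CBP30 and 272 and 182 CPM with Ctrl PIP. EnPGC-1 lay between these. Batf3 was at 0.258 and 0.354 CPM with SGC-CBP30 and 2.42 and 3.45 CPM with Ctrl PIP. Myc was at 71.1 and 62.9 CPM with SGC-CBP30 and 153 and 124 CPM with Ctrl PIP, which again left EnPGC-1 between them. Hk2 was at 27.1 and 33.7 CPM with SGC-CBP30 and 59.4 and 50.3 CPM with Ctrl PIP, both above EnPGC-1. Klf2 was at 275 and 273 CPM with SGC-CBP30 and 206 and 218 CPM with Ctrl PIP. Uchl1 stood at 1.29 and 1.85 CPM with SGC-CBP30 and 1.10 and 1.89 CPM with Ctrl PIP, near the DMSO level. Mt1 stood at 5.01 and 3.26 CPM and 9.60 and 4.59 CPM.

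**Figure D4:**
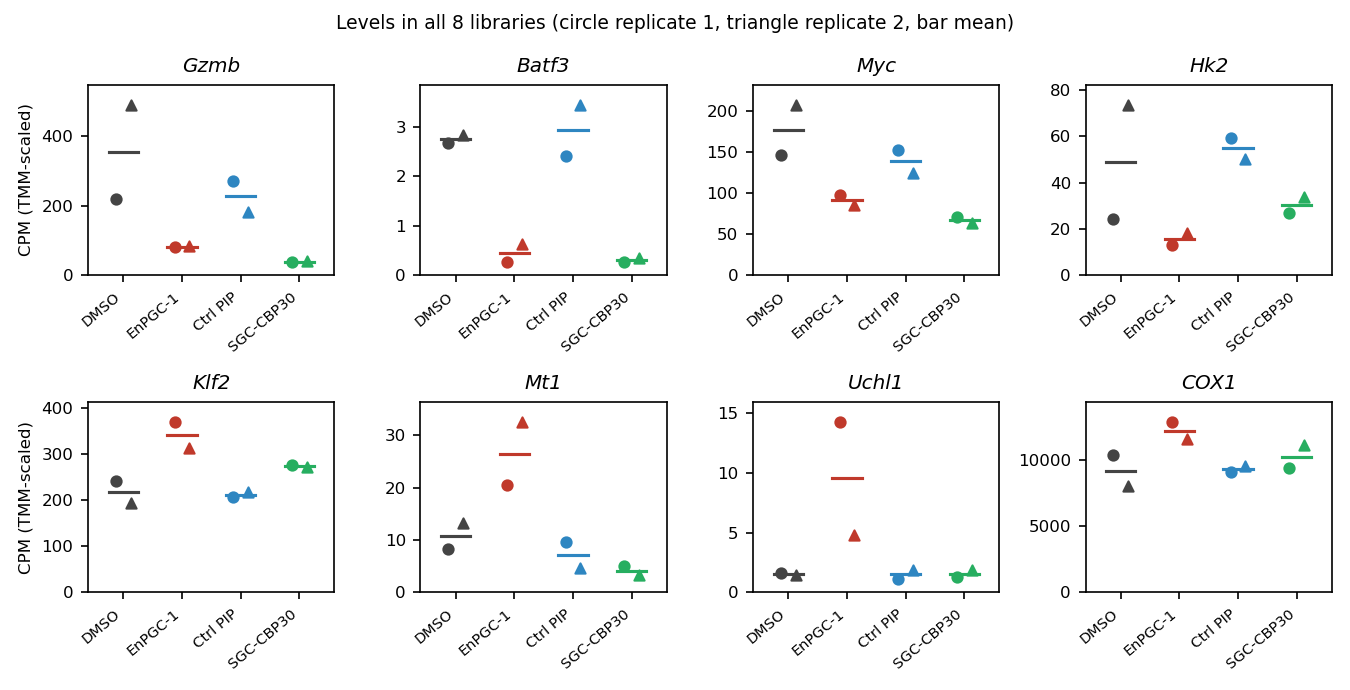
CPM on linear axes from 0 in all 8 libraries for 8 genes, 1 panel per gene and 1 point per library (circle first, triangle second), grouped by compound, with a bar at the mean of each pair. The EnPGC-1 points of Klf2, Mt1, Uchl1 and COX1 lie above all 6 others and those of Hk2 below all 6, while for Gzmb and Myc the SGC-CBP30 points lie lower still.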

How the data were processed

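RNA was extracted from the cells with a column kit and made into strand-marked poly(A) libraries, per the labels' protocols. The authors deposited whole-number counts per gene for 45777 Entrez gene IDs, 1 column per library. HISAT2, StringTie, DESeq2 and the build mm10 are named in the submitters' processing notes. Not given in the sources used here are the counter, its strand setting and the annotation, so overlapping genes, antisense genes and near copies (Ly6c1 and Ly6c2, the globins, Il4i1b) may share counts. A second deposited table was not used, because its header names stand 1 field to the left of their values. There were 0 columns of other samples. Symbols and positions came from RefSeq on GRCm38.p6, which matched 99.8% of IDs.

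Counts of all 8 libraries were fitted by group with edgeR 4.0.16 in R 4.3.3 (TMM, filterByExpr, robust glmQLFit, glmQLFTest), which left 16750 genes and 4 residual degrees of freedom. Tests were two-sided with Benjamini-Hochberg adjustment over all genes. CPM were scaled by TMM library sizes, and same-numbered ratios used log2 CPM with a prior count of 2. The test was tested on simulated data. DESeq2 1.42.0, offsets for length and GC (mgcv 1.9.3), the replicate block, other scalings and filters, and libraries left out were alternatives.

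Named genes were a fixed set, up to 15 separated genes per direction with an average of 5 CPM or more in the higher group and an unadjusted p under 0.05, taken by the size of the gap (predicted genes skipped), up to 4 separated members per list in its direction with up to 2 against it, and list members of highest level where none was separated. The genes, the 36 lists and the motifs were chosen with earlier results of these data known. Some genes that met the rule are not reported here.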

Additional observations from a re-analysis of the deposited data

How the results depend on the processing

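edgeR's quasi-likelihood test called 0 genes in either direction in every fit of all 8 libraries, with 1 of the 4 compared libraries left out, and with only those 4. The exceptions were DESeq2's Wald test, with 6 higher and 16 lower, the replicate block in only the 4 libraries (1 higher, added after seeing the data), and the fit that drops the first library of both groups, also added then; the fit that drops the second of both called 0. With libraries left out, calls ran from 0 to 377 higher and from 0 to 718 lower; the upper values are those without both first libraries, a fit of 1 library against 1 whose spread comes from Ctrl PIP and SGC-CBP30.

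At an unadjusted p under 0.05, counts were 134 higher and 304 lower. They were 251 and 420 with length and GC offsets, 26 and 58 with only the 4 libraries, 735 and 952 with the replicate block in these 4, 251 and 477 with DESeq2, and 155 to 2205 and 202 to 2385 with libraries left out. The highest values from 1 library, 2065 and 1748, were without the first DMSO library. Genes with both EnPGC-1 libraries above both DMSO libraries numbered 1646 to 2116 over scalings, filters and offsets, and those below 1356 to 1796. With 1 library left out these counts, which then need fewer libraries to be ordered, ran from 3661 to 6446 and from 3421 to 6331.

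The replicate block in all 8 libraries gave 0 calls, and 139 higher and 325 lower at the unadjusted threshold; with offsets added it gave 269 and 480. Deviations of same-numbered DMSO and EnPGC-1 libraries correlated at 0.67 over genes, and the other pairs of groups at -0.25 to 0.23. Same-numbered libraries of the groups compared thus deviated together, but there are 2 pairs and no label says what a number stands for, so no pairing was assumed. The deviation of a library from the mean correlated with transcript length (Spearman) at 0.50 and -0.55 for DMSO and 0.43 and -0.48 for EnPGC-1. For Ctrl PIP it was -0.45 and -0.18, and for SGC-CBP30 0.46 and 0.38. The first and second libraries of the groups compared thus differed by transcript length, and why was not tested. The block moved the median of the inhibitory receptors from -0.20 to -0.48 in only the 4 libraries, and that of the ATF4 and unfolded protein response genes from -0.15 to -0.27 in all 8. The activation factors moved from -0.63 to -0.39 with offsets and -0.38 with block and offsets. In all, 166 of 176 named genes kept their sign in every alternative, and 10 of 36 list medians did. Most named genes were picked as separated, so leaving out a library could hardly reverse them. Their count is therefore no support for them. With libraries left out, these log2 fold changes reversed: Slc2a1 (-1.58 to 0.15), Prf1 (-0.25 to 0.36), Esrra (-0.36 to 0.0093), Tfam (-0.69 to 0.39), Traf2 (-0.25 to 0.0033), Ep300 (-0.75 to 1.54), Ppargc1b (-0.91 to 1.03), Il2 (-6.92 to 0.30), Crebbp (-0.58 to 1.45) and Pprc1 (-1.16 to 0.092). The cause was not tested. limma on the second deposited table was planned and not run, since its columns could not be tied to libraries by name. The common coefficient of variation between libraries was 0.415 over 8 libraries and 0.543 over the 4 compared, and low counts further limit genes such as Batf3, Il2 and Ppargc1a.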

Other observations

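Genes of cell survival and stress, outside the comparisons above, were split. Of 28 p53 targets and BCL2 family genes, 7 were separated lower and 2 higher (median -0.29). Bcl2l1, which encodes the survival protein BCL-xL, was at 23.1 and 40.5 CPM with EnPGC-1 and 44.4 and 68.4 CPM with DMSO (-0.83, SE 0.34). Gadd45a, a growth arrest gene, lay higher in low amounts, at 5.90 and 4.51 CPM against 3.54 and 3.71 CPM (0.52, SE 0.31). Of 30 ATF4 and unfolded protein response genes, 5 were separated lower and 1 higher (median -0.15, but 0.02 without the second DMSO library). Xbp1, a factor of the secretory pathway, was at 36.2 and 41.0 CPM against 49.9 and 73.4 CPM (-0.67, SE 0.23), and Sesn1, a sestrin that restrains growth signalling, at 158 and 180.3 CPM against 143 and 105 CPM (0.45, SE 0.22).

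Autophagy and lysosome genes had 6 of 38 separated higher and 2 lower (median 0.06, but -0.03 between the first libraries alone). Atg12, a conjugation factor of autophagosomes, was at 67.2 and 78.5 CPM against 62.0 and 54.1 CPM (0.33, SE 0.18), and Ctss, a lysosomal protease, at 141 and 145 CPM against 120.2 and 127 CPM (0.21, SE 0.18). Of 11 tested NK cell markers, 5 were separated lower and 0 higher, 4 of them receptors that CD8+ T cells can also carry (Klrk1, Klre1, Klrb1c and Klrc1) and the other the factor Eomes, given above. Klre1 was at 0.777 and 2.38 CPM against 4.11 and 7.45 CPM (-1.87, SE 0.71), and Klrc1, which encodes NKG2A, at 8.23 and 8.06 CPM against 15.5 and 10.4 CPM (-0.67, SE 0.32). Zbtb7b, the factor of the CD4 lineage, was at 5.12 and 6.24 CPM against 13.2 and 9.78 CPM (-1.02, SE 0.27), below all 6 other libraries. None of these genes passed the adjusted threshold in edgeR's quasi-likelihood test, which called 0 of 16750 genes.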
